A study of Mus musculus with 10 samples.

Results

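Expression of the Toll-like receptors and of the first steps of MyD88 signalling was followed in murine lymphoma cells that lack interleukin 10 (IL-10), in lymphoma cells that can make it, and in germinal centre B cells. The 10 genes were taken by symbol from the deposited count table: the receptors Tlr1, Tlr2, Tlr3, Tlr4, Tlr6, Tlr7 and Tlr9, the receptor-like protein Cd180, the adaptor Myd88 and the kinase Irak1. All 10 were present among the 46316 genes of the table, and all 10 passed the filter on low counts, as did 17718 genes in all.

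The pBIC10 group held 3 lymphoma samples from C57BL/6 mice that carried p53F/F and Blimp1F/F (conditional loss of a tumour suppressor and of the plasma cell regulator encoded by Prdm1), with IKK2castopF/stopF (Cre-switched active IKK2, which drives NF-κB), Cg1Cre/+ (Cre from the immunoglobulin Cγ1 locus, active in germinal centre B cells) and IL-10F/F. The pBIC group held 3 lymphoma samples with the same alleles but without IL-10F/F. The YC group held 4 samples from mice with YFPstopF/+ and Cg1Cre/+, taken 10 days after the second of a pair of immunisations with sheep red blood cells given 20 days apart. Cg1Cre/+ was thus common to all groups, and only the lymphoma groups carried active IKK2 and the deletions. Lymphoma cells were sorted from spleen as B220+GFP+ and the control cells as B220+YFP+, and each library was a poly(A) RNA library read at 50 bases; some YC label fields repeat the lymphoma wording. The pBIC10 group was 2 females and 1 male (replicate 3), the pBIC group 3 females, and the YC group 3 females and 1 male (replicate 3); ages were not given. Per the labels, the libraries of pBIC and YC come from an earlier series and those of pBIC10 from the present one, so the series and the genotype cannot be told apart in either pBIC10 comparison.

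Toll-like receptors are innate sensors that B cells use beside the B cell receptor. Tlr2 pairs with Tlr1 or Tlr6 for bacterial lipoproteins and Tlr4 binds lipopolysaccharide at the cell surface, while Tlr3, Tlr7 and Tlr9 read double-stranded RNA, single-stranded RNA and unmethylated CpG DNA in endosomes. All of these except Tlr3 recruit the adaptor MyD88, which assembles IRAK kinases and leads to NF-κB, and MyD88 signalling joined to the B cell receptor is a known survival route of human diffuse large B cell lymphoma.

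Libraries held 17.1 to 18.6 M counts in pBIC10, 17.8 to 19.1 M in pBIC and 12.6 to 14.3 M in YC. A gene with 3 counts thus had between 0.154 and 0.246 counts per 1 M counts (CPM) over the libraries. The same heavy-chain segment led all 3 pBIC10 libraries (Ighv7-3, 67.4% to 70.5% of Ighv counts) and another led all 3 pBIC libraries (Ighv8-11, 51.6% to 59.1%), while the leading segments of the 4 YC libraries differed and took 3.73% to 10.9%. Whether libraries of one lymphoma group come from separate tumours was not given, so p-values measure the spread between these libraries. The summed level of 7 B cell markers was 2521 to 4309 CPM in pBIC10, 1873 to 3408 CPM in pBIC and 7986 to 10145 CPM in YC, and all 7 germinal centre markers were lower in each lymphoma group than in YC. Il10 had 1.99 to 4.77 CPM in pBIC10, 6.84 to 19.4 CPM in pBIC and 4.23 to 9.98 CPM in YC; whether these reads lie in the deleted part was not given.

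The promoters of the members that passed the test in at least 1 comparison below are shown first, from RefSeq (build GRCm38.p6, 250 bases before to 50 after the start), so that the letters stand beside the genes whose level changed. Entries were found for 8 of the 10 members, with 12 promoters in all; Tlr4 and Tlr7 had none. Capitals mark matches, on either strand, to 5 motifs: NF-κB (GGNNTTTCC), the interferon-stimulated response element (GAAANNGAA), STAT (TTCCNGGAA, the family that IL-10 signals through), ETS (GAGGAAG) and the octamer (ATGCAAAT, read by OCT factors of B cells). Cd180 has a second start close by, whose promoter overlaps the one shown.
Tlr2, chr3:83841559-83841858, minus strand: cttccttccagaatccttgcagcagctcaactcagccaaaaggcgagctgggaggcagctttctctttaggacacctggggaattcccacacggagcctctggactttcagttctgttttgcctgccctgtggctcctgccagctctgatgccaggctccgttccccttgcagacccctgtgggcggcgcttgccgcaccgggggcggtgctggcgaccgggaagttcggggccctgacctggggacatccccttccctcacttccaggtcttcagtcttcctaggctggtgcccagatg
Tlr3, chr8:45410331-45410630, minus strand: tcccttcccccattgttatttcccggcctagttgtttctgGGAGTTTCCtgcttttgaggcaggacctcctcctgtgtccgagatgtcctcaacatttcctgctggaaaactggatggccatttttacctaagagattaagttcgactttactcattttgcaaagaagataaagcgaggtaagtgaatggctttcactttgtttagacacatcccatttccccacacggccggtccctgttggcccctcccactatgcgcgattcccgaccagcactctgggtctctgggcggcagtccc
Myd88, chr9:119339969-119340268, minus strand: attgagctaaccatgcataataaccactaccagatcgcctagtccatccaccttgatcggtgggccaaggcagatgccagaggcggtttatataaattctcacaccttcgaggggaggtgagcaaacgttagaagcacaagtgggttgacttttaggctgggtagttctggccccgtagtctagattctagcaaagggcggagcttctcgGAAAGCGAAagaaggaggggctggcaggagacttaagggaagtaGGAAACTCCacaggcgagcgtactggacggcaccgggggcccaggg
Cd180, chr13:102693297-102693596, plus strand: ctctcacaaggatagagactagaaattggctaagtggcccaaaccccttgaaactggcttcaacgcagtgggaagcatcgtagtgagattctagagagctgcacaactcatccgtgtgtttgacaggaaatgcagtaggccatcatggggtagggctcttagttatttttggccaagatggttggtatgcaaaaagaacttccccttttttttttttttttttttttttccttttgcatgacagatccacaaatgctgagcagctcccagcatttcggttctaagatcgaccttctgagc
The Tlr3 promoter held an NF-κB match 210 bases before the start. The Myd88 promoter held an interferon-stimulated response element 40 bases before the start and an NF-κB match 4 bases after it. The Tlr2 and Cd180 promoters held no match to the 5 motifs as spelt above. The NF-κB motif is a shortened form, so sites spelt otherwise were not marked in any promoter. The lack of a match is thus no evidence that such a site is absent. Among the other members, the Tlr9 promoter held ETS matches and an octamer 72 bases before its start, 1 of the Tlr6 promoters held overlapping interferon-stimulated response elements, and 1 of the Tlr1 promoters held an ETS match. Of 32851 promoters of the same length, 5.82% held the NF-κB motif, 8.56% the interferon-stimulated response element, 1.15% the STAT motif, 13.6% the ETS motif and 1.74% the octamer. A match is a description of these letters and not evidence of binding.

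Levels below are CPM after scaling by the trimmed mean of M values (TMM). Fold changes are log2 values from edgeR's quasi-likelihood test on all 10 libraries with their standard errors (SE), and a gene was called when its p, Benjamini-Hochberg adjusted over 17718 genes, was under 0.05. Group values are means ± SD.

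**Figure D1:**
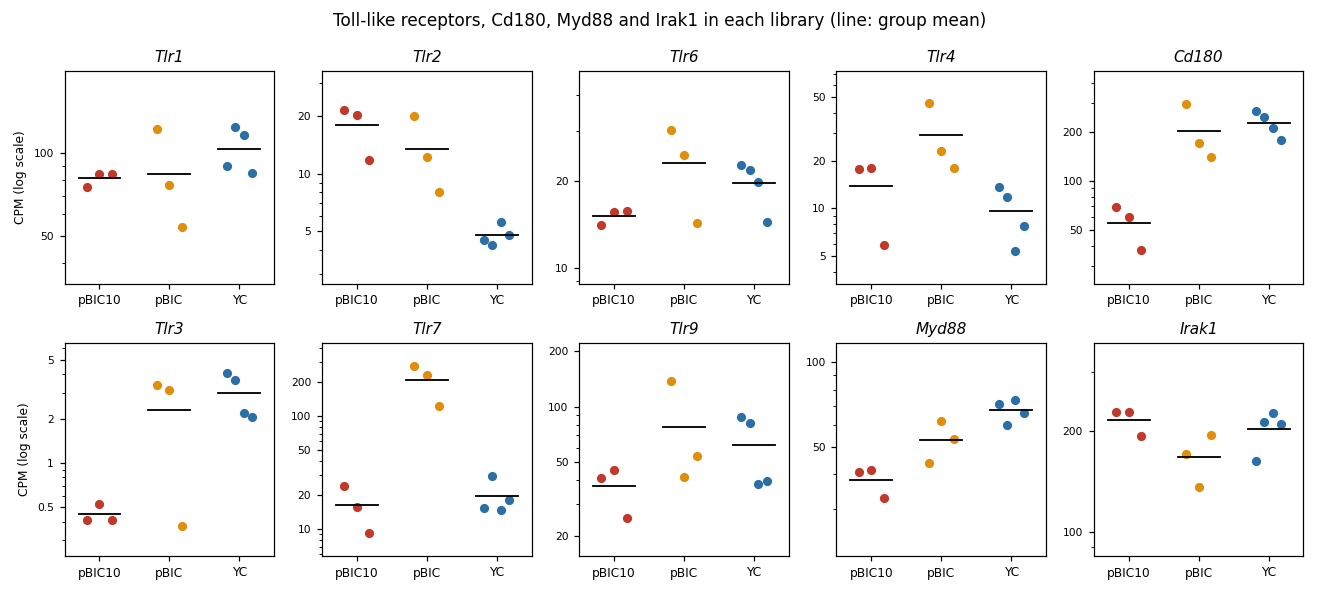
Level of each member in every library (CPM, log axis), with pBIC10 left, pBIC in the middle and YC right; points are libraries and lines are group means. The 3 pBIC libraries of Tlr7 sit between 124 and 277 CPM, above every pBIC10 and YC library, and the 3 pBIC10 libraries of Cd180 sit between 37.4 and 68.8 CPM, below every other library.

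The endosomal RNA sensor Tlr7 was far higher in pBIC than in either other group. It had 23.9, 15.8 and 9.33 CPM in the pBIC10 libraries and 277, 232 and 124 CPM in the pBIC libraries, against 15.5, 29.6, 14.9 and 18.2 CPM in YC. The 3 pBIC libraries stood far above all others, while the pBIC10 and YC libraries overlapped. Tlr7 averaged 16.3 ± 7.33 CPM in pBIC10 and 211 ± 78.8 CPM in pBIC, a 12.9-fold lower level in pBIC10 (log2 -3.69 ± 0.42 SE, edgeR adjusted p = 7.13e-05). In pBIC it was 10.8-fold higher than the 19.5 ± 6.89 CPM of YC (log2 3.43 ± 0.37 SE, adjusted p = 2.34e-05). Between pBIC10 and YC the log2 difference was -0.26 ± 0.36 SE (adjusted p = 0.579), and it turned to 0.04 without pBIC10 replicate 3. Both calls of Tlr7 held in all 20 alternative fits. Tlr7 lies on the X chromosome, and its log2 difference between pBIC10 and pBIC ranged over those fits, which include one of females only, between -4.06 and -3.40.

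Tlr7 is also expressed by macrophages, monocytes and dendritic cells, whose markers were therefore read in the same libraries. The 10 macrophage and monocyte markers summed to 27.6 to 34.8 CPM in pBIC10, 128 to 166 CPM in pBIC and 143 to 209 CPM in YC. In pBIC10 against pBIC, where Tlr7 was lower, 3 of the 10 were lower (Cd68, Lyz2 and Fcgr1), and in pBIC10 against YC 9 were lower. In pBIC against YC, 1 was higher and 6 were lower. The higher one was Cd68, a lysosomal protein, with 19.9, 23.7 and 13.2 CPM in pBIC10 and 115, 100.3 and 117 CPM in pBIC, against 30.5, 26.8, 32.8 and 31.9 CPM in YC. Csf1r, the receptor that defines the macrophage lineage, had 1.71, 1.87 and 0.871 CPM in pBIC10 and 2.14, 2.83 and 1.66 CPM in pBIC, against 22.7 to 29.3 CPM in YC. Fcgr1 was at 0 in all pBIC10 libraries. The 8 dendritic cell markers summed to 47.9 to 63.0 CPM in pBIC10, 49.5 to 78.3 CPM in pBIC and 78.2 to 111 CPM in YC. The part of these cell types in the Tlr7 levels was not tested. In such bulk samples, fewer cells of a type and less RNA per cell cannot be told apart.

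Tlr9, the endosomal CpG DNA sensor, was not called in any comparison. It had 41.2, 45.8 and 25.2 CPM in pBIC10 and 137, 41.9 and 54.1 CPM in pBIC, against 87.5, 81.6, 38.1 and 39.9 CPM in YC. Its groups overlapped in every comparison, and 1 library, pBIC replicate 1, stood above the rest. The log2 difference was -1.06 ± 0.46 SE for pBIC10 against pBIC (adjusted p = 0.106), -0.72 for pBIC10 against YC (adjusted p = 0.187) and 0.33 for pBIC against YC (adjusted p = 0.530), the last turning to -0.37 without pBIC replicate 1. Set per kb of exon, Tlr7 over Tlr9 was 0.495, 0.293 and 0.316 in pBIC10 and 1.72, 4.72 and 1.95 in pBIC, against 0.151, 0.310, 0.332 and 0.388 in YC. Tlr7 thus exceeded Tlr9 in all 3 pBIC libraries and in none of the other 7. This ratio was chosen after the values were seen and was not tested.

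Tlr3, which signals through TRIF rather than MyD88, was the scarcest member. It had 0.413, 0.527 and 0.410 CPM in pBIC10 (7, 9 and 8 counts) and 3.38, 3.11 and 0.375 CPM in pBIC (63, 55 and 7 counts), against 4.08, 3.69, 2.19 and 2.07 CPM in YC. The pBIC10 libraries were low throughout, and pBIC replicate 3 fell among them. Tlr3 was lower in pBIC10 than in YC (0.450 ± 0.0668 CPM and 3.01 ± 1.02 CPM; log2 -2.72 ± 0.66 SE, edgeR adjusted p = 0.00374), a call that held in all 20 alternatives. It was also called lower in pBIC10 than in pBIC (log2 -2.33 ± 0.67 SE, adjusted p = 0.0192), but that call was lost without any 1 pBIC10 library (adjusted p = 0.0522 to 0.0616) and without pBIC replicate 1 (0.0621) or replicate 2 (0.0592). Between pBIC and YC the log2 difference was -0.39 (adjusted p = 0.578), and 0.12 without pBIC replicate 3. An antisense gene, Gm45542, overlaps 7.32% of the exon length of Tlr3 in the GENCODE vM21 annotation; whether reads were counted by strand is not given in the sources used here, so reads of the 2 genes cannot be told apart.

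Cd180, also called RP105, is a receptor-like protein of B cells without the intracellular TIR domain of the Toll-like receptors, and it needs its partner MD-1, encoded by Ly86, to reach the surface. Cd180 had 68.8, 59.6 and 37.4 CPM in pBIC10 and 297, 170.2 and 139 CPM in pBIC, against 269, 246, 210.0 and 179 CPM in YC. The pBIC10 libraries lay below all 7 others, while pBIC and YC overlapped. It was 3.66-fold lower in pBIC10 than in pBIC (55.3 ± 16.2 CPM and 202 ± 83.5 CPM; log2 -1.87 ± 0.30 SE, edgeR adjusted p = 5.03e-04) and 4.09-fold lower than in YC (226 ± 39.5 CPM; log2 -2.03 ± 0.29 SE, adjusted p = 9.66e-05). Both calls held in all 20 alternatives. The log2 difference between pBIC and YC was -0.16 ± 0.27 SE (adjusted p = 0.633), and it turned to 0.01 without pBIC replicate 2 and 0.05 without pBIC replicate 3. An exon of Mast4 on the opposite strand overlaps 4.04% of the exon length of Cd180.

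The partners of the surface receptors were fixed as a list of 4: Ly86, Ly96 (MD-2, which presents lipopolysaccharide to Tlr4), Cd36 (a scavenger receptor that helps Tlr2 with Tlr6) and Cd14 (which hands lipopolysaccharide to Tlr4). In pBIC10 against pBIC, 3 of the 4 were lower and none was higher; in pBIC10 against YC, 3 were lower; in pBIC against YC, 3 were higher and 1 was lower. Ly86 had 91.0, 106 and 85.4 CPM in pBIC10 and 271, 364 and 276 CPM in pBIC, against 158, 157, 147 and 135 CPM in YC. It was thus lowest in pBIC10 and highest in pBIC with no overlap between groups (log2 -1.69 ± 0.17 SE, adjusted p = 1.53e-05 for pBIC10 against pBIC, and 1.02 ± 0.15 SE, adjusted p = 1.46e-04 for pBIC against YC). Cd36 had 16.1, 19.2 and 10.9 CPM in pBIC10 and 348, 520.3 and 149 CPM in pBIC, against 28.2, 34.8, 27.0 and 35.4 CPM in YC. It was 22.05-fold lower in pBIC10 than in pBIC (log2 -4.46 ± 0.41 SE, adjusted p = 1.51e-05). Its call against YC (log2 -1.03, adjusted p = 0.0279) was lost without pBIC10 replicate 1 (0.0683) or 3 (0.107) or YC replicate 2 (0.0545) or 4 (0.0558). Ly96 was lower in pBIC10 than in pBIC (2.38 ± 0.459 CPM and 7.18 ± 2.69 CPM; adjusted p = 0.00768), and its rise in pBIC over YC (adjusted p = 0.0117) was lost without pBIC replicate 2 (0.0529). Cd14, the gene lower in pBIC than in YC (adjusted p = 0.0205, lost without pBIC replicate 1, 0.0724, or 2, 0.0587, or YC replicate 4, 0.0516), had at most 0.472 CPM in any pBIC10 or pBIC library, against 0.778 to 2.28 CPM in YC.

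**Figure D2:**
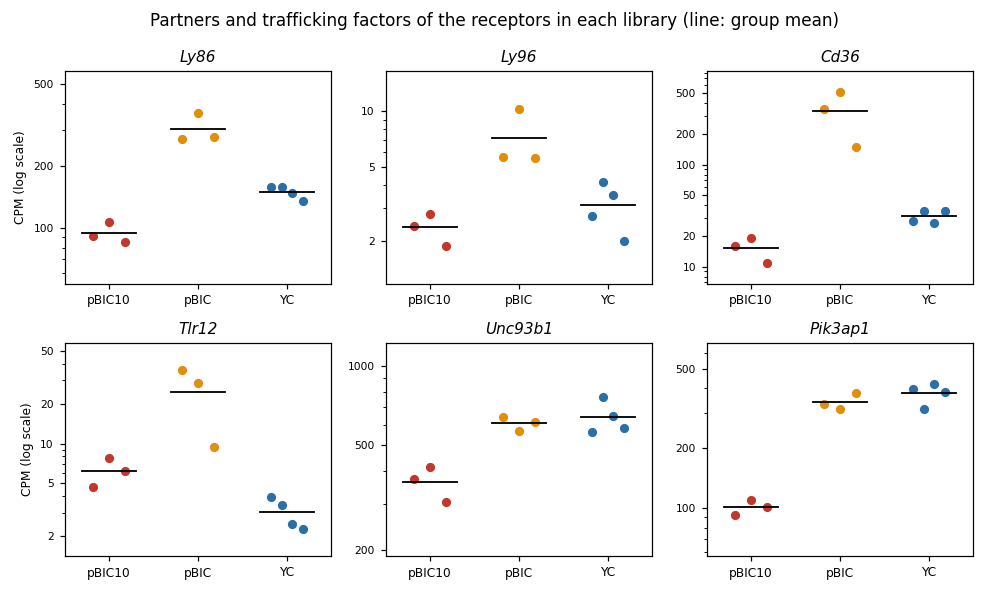
Level of Ly86, Ly96, Cd36, Tlr12, Unc93b1 and Pik3ap1 in every library (CPM, log axis), with pBIC10 left, pBIC in the middle and YC right; points are libraries and lines are group means. Ly86 runs between 85.4 and 106 CPM in pBIC10 and between 271 and 364 CPM in pBIC, with the YC libraries at 135 to 158 CPM between them.

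Of the lipoprotein receptors, only Tlr2 passed the test, and it did so against YC in both lymphoma groups. Tlr2 had 21.7, 20.4 and 11.8 CPM in pBIC10 and 20.2, 12.3 and 8.03 CPM in pBIC, against 4.52, 4.26, 5.59 and 4.78 CPM in YC. Every lymphoma library lay above every YC library, and the lymphoma groups overlapped. Tlr2 was 3.75-fold higher in pBIC10 than in YC (17.997 ± 5.37 CPM and 4.79 ± 0.575 CPM; log2 1.91 ± 0.32 SE, edgeR adjusted p = 2.96e-04) and 2.81-fold higher in pBIC than in YC (13.5 ± 6.15 CPM; log2 1.49 ± 0.32 SE, adjusted p = 0.00167). Both calls held in all 20 alternatives. Between the lymphoma groups the log2 difference was 0.42 ± 0.33 SE (adjusted p = 0.376).

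Neither Tlr1 nor Tlr6, the partners of Tlr2, was called in any comparison. Tlr1 had 75.3, 83.6 and 83.8 CPM in pBIC10 and 122, 76.6 and 53.9 CPM in pBIC, against 90.0, 124, 116 and 84.6 CPM in YC. The pBIC10 libraries lay just below the YC libraries and inside the range of pBIC. Its log2 difference was -0.06 ± 0.26 SE for pBIC10 against pBIC (adjusted p = 0.896), with a sign that turned to 0.32 without pBIC replicate 1, -0.36 ± 0.24 SE for pBIC10 against YC (adjusted p = 0.230) and -0.30 ± 0.24 SE for pBIC against YC (adjusted p = 0.304). The last of these reached -0.67 (adjusted p = 0.0163) without pBIC replicate 1. Tlr6 had 14.2, 15.7 and 15.8 CPM in pBIC10 and 30.2, 24.7 and 14.4 CPM in pBIC, against 22.8, 21.9, 19.9 and 14.5 CPM in YC. Its groups overlapped in every comparison, and pBIC replicate 3 stood with the pBIC10 libraries. The log2 difference was -0.60 ± 0.27 SE for pBIC10 against pBIC (adjusted p = 0.108, and 0.0159 without pBIC replicate 3), -0.38 for pBIC10 against YC (adjusted p = 0.233) and 0.23 for pBIC against YC (adjusted p = 0.466, with a log2 difference of -0.02 without pBIC replicate 1). Tlr1 and Tlr6 are neighbours on chromosome 5, and 454 stretches of 50 bases are identical in both, 13.6% of those of Tlr1 and 12.3% of those of Tlr6, so single reads from them cannot be placed. The ratio of Tlr1 to Tlr6 counts was 5.31 to 5.33 in pBIC10, 3.10 to 4.03 in pBIC and 3.95 to 5.85 in YC.

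Tlr4 had 17.8, 18.04 and 5.90 CPM in pBIC10 and 46.0, 23.1 and 18.1 CPM in pBIC, against 13.6, 11.8, 5.38 and 7.70 CPM in YC. All pBIC libraries lay above all others, narrowly so at 18.1 CPM in the lowest pBIC library against 18.04 CPM in the highest pBIC10 library, and pBIC10 and YC overlapped. It was 3.02-fold higher in pBIC than in YC (29.1 ± 14.9 CPM and 9.63 ± 3.77 CPM; log2 1.596 ± 0.44 SE, edgeR adjusted p = 0.00974). The call was lost without pBIC replicate 1 (log2 1.10, adjusted p = 0.0561). The log2 difference was -1.07 ± 0.48 SE for pBIC10 against pBIC (adjusted p = 0.112) and 0.53 ± 0.45 SE for pBIC10 against YC (adjusted p = 0.341).

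The adaptor Myd88 had its lowest levels in pBIC10. It had 40.7, 41.4 and 32.8 CPM in pBIC10 and 43.7, 61.7 and 53.5 CPM in pBIC, against 71.4, 59.8, 73.3 and 66.3 CPM in YC. The pBIC10 libraries lay below all others, and pBIC and YC overlapped at 1 library. Myd88 was 1.77-fold lower in pBIC10 than in YC (38.3 ± 4.77 CPM and 67.7 ± 6.04 CPM; log2 -0.82 ± 0.17 SE, edgeR adjusted p = 0.00133), in all 20 alternatives. Against pBIC (53.0 ± 8.97 CPM) the log2 difference was -0.47 ± 0.18 SE with an adjusted p of 0.0630, which was 0.0219 without pBIC replicate 1. Between pBIC and YC it was -0.35 ± 0.17 SE (adjusted p = 0.0896; 0.0435 in DESeq2). Acaa1a, on the opposite strand, overlaps 11.3% of the exon length of Myd88, so the share of its counts that comes from Acaa1a is unknown.

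Irak1, the kinase that MyD88 recruits together with Irak4, varied least of the members, with an SD of 0.25 on the log2 CPM scale over the 10 libraries. It had 228, 227 and 192 CPM in pBIC10 and 170.2, 136 and 194 CPM in pBIC, against 163, 212, 226 and 209.6 CPM in YC. The groups overlapped in every comparison. Its log2 difference was 0.37 ± 0.18 SE for pBIC10 against pBIC (adjusted p = 0.134), 0.09 ± 0.17 SE for pBIC10 against YC (adjusted p = 0.679) and -0.28 ± 0.17 SE for pBIC against YC (adjusted p = 0.173). The second of these turned to -0.02 without YC replicate 1.

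**Figure D3:**
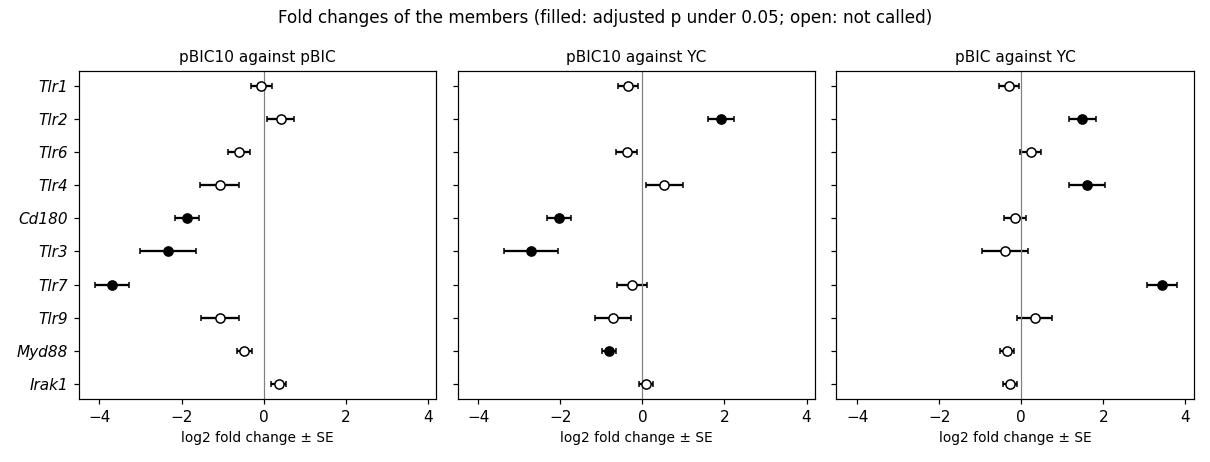
Log2 fold change of each member with its SE in the 3 comparisons, with pBIC10 against pBIC left, pBIC10 against YC in the middle and pBIC against YC right, as points with bars; filled points passed the adjusted p threshold of 0.05. Tlr7 lies at -3.69 for pBIC10 against pBIC and at 3.43 for pBIC against YC, and near 0 (-0.26) for pBIC10 against YC.

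Counted together, 3 of the 10 members were lower in pBIC10 than in pBIC (Tlr3, Tlr7, Cd180) and none was higher, where 30.7% of all genes tested were called (15.6% higher, 15.1% lower). In pBIC10 against YC, 1 member was higher and 3 were lower, where 51.7% of all genes were called (24.8% higher, 26.9% lower). In pBIC against YC, 3 members were higher and none was lower, where 54.1% of all genes were called (26.4% higher, 27.7% lower). A count of 3 or 4 in 10 is near or below these shares, so the numbers of calls say nothing about the members as a group. The median log2 difference of the members was -0.83, -0.37 and 0.03 in these comparisons, in that order, beside -0.01, 0.01 and 0.02 over all genes tested. Groups did not overlap for 4, 5 and 3 members in the same order, where 41.8%, 61.0% and 54.2% of all genes did not overlap. The comparisons share libraries and are not independent.

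Within the groups, single libraries led many members at once. The pBIC replicate 1 library was the highest of its group for 8 of the 10 members, as it was for 32.4% of all genes tested, and pBIC replicate 3 was the lowest for 7 (31.7% of all genes). The male pBIC10 replicate 3 was the lowest of its group for 8 members (38.5% of all genes). The B cell marker sum was 3879, 4309 and 2521 CPM in the pBIC10 libraries, in replicate order, and 3408, 1873 and 1889 CPM in the pBIC libraries. It was thus lowest in pBIC10 replicate 3 and highest in pBIC replicate 1; its part in the members' levels was not tested.

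Levels of different genes can be set side by side only per length, here CPM per kb of exon in the GENCODE vM21 annotation (GRCm38, not the GRCm39 build of the counts). In pBIC10 the order was Irak1 at 45.8 CPM per kb, Tlr1 at 24.2, Myd88 at 14.9, Cd180 at 12.3, Tlr9 at 10.8, Tlr2 at 5.97, Tlr6 at 4.08, Tlr7 at 4.004, Tlr4 at 2.505 and Tlr3 at 0.0864. Myd88, Cd180 and Tlr9 overlapped in their libraries, as did Tlr2, Tlr6 and Tlr7, and Tlr7 with Tlr4. In pBIC the order was Tlr7 at 51.6 CPM per kb, Cd180 at 44.8, Irak1 at 35.3, Tlr1 at 25.1, Tlr9 at 22.4, Myd88 at 20.6, Tlr6 at 6.20, Tlr4 at 5.24, Tlr2 at 4.47 and Tlr3 at 0.439. Each of the first 6 overlapped with its neighbour, as did Tlr6, Tlr4 and Tlr2. In YC the order was Cd180 at 50.1 CPM per kb, Irak1 at 43.0, Tlr1 at 31.0, Myd88 at 26.3, Tlr9 at 17.8, Tlr6 at 5.30, Tlr7 at 4.79, Tlr4 at 1.73, Tlr2 at 1.59 and Tlr3 at 0.577. There the first 5 overlapped neighbour by neighbour, Tlr6 overlapped with Tlr7, and Tlr4 with Tlr2. By this length Tlr7 was the 8th of the 10 in pBIC10, the 1st in pBIC and the 7th in YC. By the length of the longest transcript it was the 7th in pBIC10, the 2nd in pBIC, behind Cd180, and the 7th in YC. The length used matters most for Cd180, which stood at 20.9, 76.3 and 85.3 CPM per kb in pBIC10, pBIC and YC when its longest transcript was used.

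**Figure D4:**
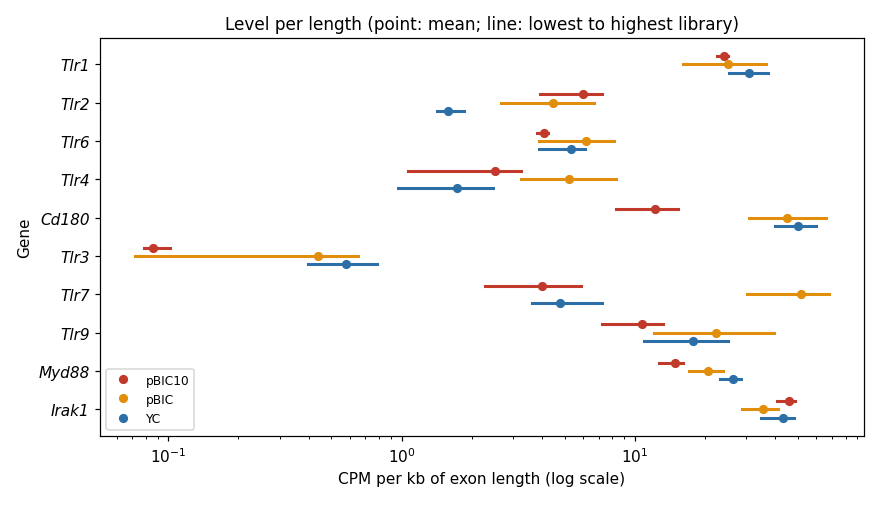
Mean level of each member per kb of exon (log axis) in pBIC10, pBIC and YC, with lines from the lowest to the highest library. Tlr7 stands at 51.6 CPM per kb in pBIC, against 4.004 in pBIC10 and 4.79 in YC, and Tlr3 is lowest in all 3 groups.

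Genes whose pattern over the 10 libraries was nearest to a member were found by the root mean square difference of centred log2 CPM among 10202 genes. For Tlr7 these were Fgl2 (0.404), Slc31a2 (0.450) and Cd36 (0.481). For Cd180 they were Trafd1 (0.224), Fcrl1 (0.271) and Hcls1 (0.272), for Tlr2 Frrs1 (0.267), Zfp661 (0.269) and Mbtps2 (0.297), and for Tlr3 Ctnna1 (0.478), Pik3cg (0.483) and Slfn2 (0.493). These distances describe the same libraries that separate the groups.

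The rest of the pathway was read from 10 lists with 82 genes, of which 75 were tested. In pBIC10 against pBIC, 8 were higher and 30 were lower, with a median log2 difference of -0.43. In pBIC10 against YC, 11 were higher and 37 were lower (median -0.55), and in pBIC against YC, 15 were higher and 26 were lower (median -0.15). Over all genes tested, 15.6% were higher and 15.1% lower in pBIC10 against pBIC, 24.8% and 26.9% in pBIC10 against YC, and 26.4% and 27.7% in pBIC against YC, and the counts of each list below stand against these shares. Wherever none of a list's genes, or of the members, was called in a direction by edgeR, none had an unadjusted p under 0.05 in that direction and neither DESeq2 nor limma-voom called one, with 2 exceptions in pBIC against YC: DESeq2 called Myd88 lower, and Nfkb1 was higher at an unadjusted p under 0.05. T cell markers, which a B cell gate should remove, summed to 3.34 to 7.55 CPM in pBIC10, 17.1 to 36.6 CPM in pBIC and 122 to 370.5 CPM in YC, with 7 of 8 lower in pBIC10 than in pBIC and all 8 lower in each lymphoma group than in YC; their part in these counts was not tested.

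**Figure D5:**
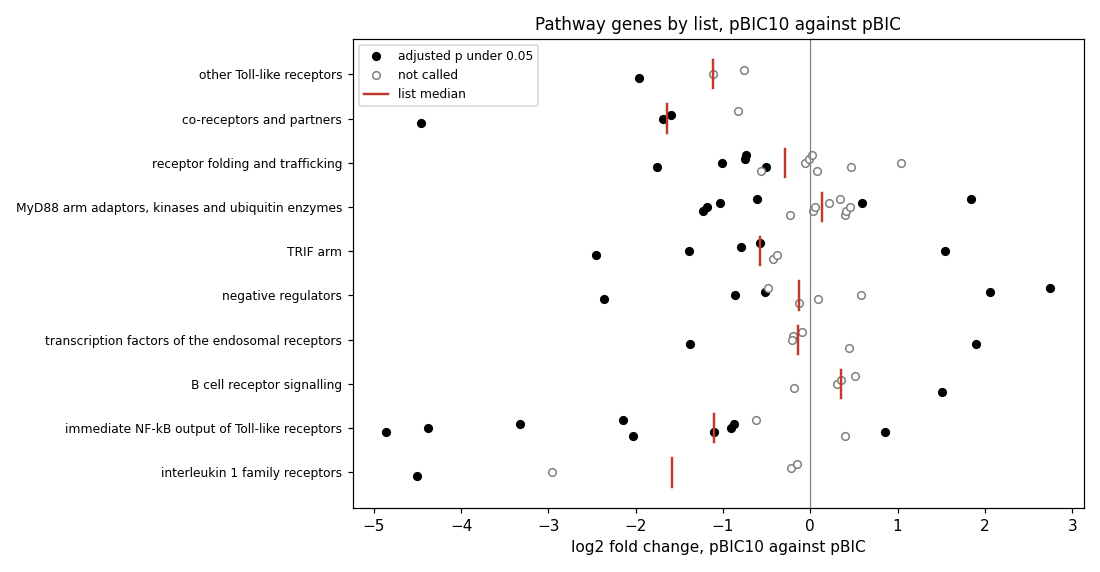
Log2 fold change of pBIC10 against pBIC for each tested gene of the 10 pathway lists, 1 list per row; filled points passed the adjusted p threshold of 0.05, open points did not, and the vertical mark is the list median. Of the 11 NF-κB output genes, 8 are filled points left of 0, and their median lies at -1.11.

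Among the other Toll-like receptors, 3 of 5 were tested. Tlr12, which in mice senses a protozoan profilin, had 4.72, 7.85 and 6.20 CPM in pBIC10 and 35.8, 28.4 and 9.37 CPM in pBIC, against 3.93, 3.44, 2.48 and 2.28 CPM in YC. All pBIC libraries lay above all others. It was lower in pBIC10 than in pBIC (log2 -1.97 ± 0.43 SE, adjusted p = 0.00369) and higher in pBIC than in YC (log2 3.01 ± 0.41 SE, adjusted p = 5.98e-05), while its call for pBIC10 against YC (adjusted p = 0.0428) was lost without pBIC10 replicate 2 (0.142) or 3 (0.0764) or YC replicate 2 (0.0696), 3 (0.102) or 4 (0.109). Tlr8 and Tlr13 stayed at or under 1.85 CPM in every library, and Tlr5 and Tlr11 did not pass the filter. Tlr13 was called lower in pBIC10 than in YC (log2 -1.94, edgeR adjusted p = 0.0227). That call was lost in 5 of the 20 alternatives, among them those without any 1 pBIC10 library (0.0614 to 0.0826).

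A list of 12 genes held those that fold, carry or cut the receptors, and also adaptors such as Pik3ap1. Of these 12, 5 were lower and none was higher in pBIC10 than in pBIC. In pBIC10 against YC, 3 were higher and 2 lower, and in pBIC against YC, 4 were higher and 2 lower. Without pBIC replicate 3, 2 became higher in pBIC10 than in pBIC (Slc15a4, adjusted p = 0.0182, and Ctsl, 0.0408). Of the 2 lower in pBIC than in YC, Atp6v0d1 (0.0457) was lost without pBIC10 replicate 1 or 2, pBIC replicate 1 or 3 or YC replicate 3 or 4 (0.0507 to 0.122) and Slc15a4 (0.0147) without pBIC replicate 2 (0.0813). Unc93b1, the escort of the endosomal receptors, had 373, 414 and 304 CPM in pBIC10 and 642, 568 and 612 CPM in pBIC, against 564, 766, 645 and 581 CPM in YC. The pBIC10 libraries were lower than all others (adjusted p = 0.00562 against pBIC and 0.00106 against YC). Pik3ap1, the adaptor BCAP that links receptors to phosphoinositide 3-kinase, was 3.37-fold lower in pBIC10 than in pBIC (102 ± 8.94 CPM and 342 ± 31.1 CPM, adjusted p = 8.73e-06) and 3.74-fold lower than in YC (379 ± 45.6 CPM, adjusted p = 1.73e-06). The proteases Ctsb and Ctss, which trim endosomal receptors, were both lower in pBIC10 than in pBIC (161 ± 46.7 CPM and 326 ± 32.6 CPM for Ctsb, adjusted p = 0.00322; 294 ± 42.8 CPM and 493 ± 49.0 CPM for Ctss, adjusted p = 0.00409). Both were higher in pBIC than in YC (adjusted p = 0.00382 and 2.62e-05). Lgmn, another such protease, was higher in both lymphoma groups than in YC (370.3 ± 171 CPM in pBIC10, 367 ± 42.2 CPM in pBIC and 180.1 ± 28.2 CPM in YC, with adjusted p = 0.00653 and 0.00680).

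In the MyD88 arm, 14 adaptors, kinases and ubiquitin enzymes were tested, and their changes went both ways. In pBIC10 against pBIC, 2 were higher and 4 lower, in pBIC10 against YC 4 were higher and 3 lower, and in pBIC against YC 5 were higher and 4 lower. The 2 higher in pBIC10 than in pBIC became 4 without pBIC replicate 1 (Tab2, adjusted p = 0.0275, and Ikbkb, 0.0320) and 1 without pBIC10 replicate 1 or 2 or pBIC replicate 2, where Ikbkg was lost (0.0812 to 0.109). Ube2n, among the 4 lower (0.0304), lost its call in 6 of the 20 alternatives, among them those without any 1 pBIC10 library (0.0725 to 0.0917). In pBIC10 against YC, Tab3 (higher, 0.0354) lost its call in 9, among them those without any 1 pBIC10 or YC library. Irak4 (lower, 0.0339) lost its call there in 7. Among those higher in pBIC than in YC, Map3k7 (0.0414) lost its call in 17 of the 20 alternatives. Ikbkb, which encodes IKK2, was counted as higher in both lymphoma groups than in YC. Its log2 difference was 1.47 in pBIC10 and 1.01 in pBIC (edgeR adjusted p = 2.25e-05 and 3.50e-04). Both lymphoma groups carried active IKK2, and reads of that allele and of the native gene cannot be told apart here. Tirap, the adaptor that brings MyD88 to membrane receptors, had 27.7, 32.3 and 23.8 CPM in pBIC10 and 9.22, 5.31 and 8.73 CPM in pBIC, against 28.0, 21.7, 17.8 and 16.9 CPM in YC. All pBIC libraries were lowest, so Tirap was 3.59-fold higher in pBIC10 than in pBIC (log2 1.85 ± 0.27 SE, adjusted p = 2.67e-04) and lower in pBIC than in YC (log2 -1.44 ± 0.26 SE, adjusted p = 4.99e-04). Irak2, a kinase of the same complex, ran the other way. It averaged 34.2 ± 6.97 CPM in pBIC10 and 80.5 ± 34.0 CPM in pBIC, against 36.8 ± 6.74 CPM in YC (adjusted p = 0.00563 for pBIC10 against pBIC and 0.00290 for pBIC against YC). Ube2v1, part of the enzyme that builds lysine-linked ubiquitin chains for TRAF6, and Chuk, which encodes IKK1, were likewise lower in pBIC10 than in pBIC (adjusted p = 1.31e-04 and 6.74e-04) and higher in pBIC than in YC (adjusted p = 0.00263 and 0.00353). Traf6 itself had 53.1 ± 8.47 CPM in pBIC10 and 62.5 ± 37.8 CPM in pBIC, against 63.2 ± 7.05 CPM in YC, with no call, though it was called lower in pBIC than in YC without pBIC replicate 3 (adjusted p = 0.0225).

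In the TRIF arm, which Tlr3 and Tlr4 use, 1 of 7 genes was higher and 4 were lower in pBIC10 than in pBIC, 1 was higher and 6 were lower in pBIC10 than in YC, and 1 was higher and 1 lower in pBIC than in YC. Of the 6 lower in pBIC10 than in YC, Tbk1 (edgeR adjusted p = 0.0226) lost its call in 6 of the 20 alternatives. These included the fits without any 1 pBIC10 library (0.0578 to 0.0918). Ticam1 (0.0314) lost its call in 5, among them those without pBIC10 replicate 1 (0.0683) or 3 (0.137). The bridging adaptor Ticam2 had 11.2, 10.3 and 14.97 CPM in pBIC10 and 69.8, 61.1 and 69.9 CPM in pBIC, against 27.8, 17.0, 18.5 and 20.6 CPM in YC. As for Ly86, the YC libraries lay between the lymphoma groups (log2 -2.46 ± 0.23 SE, adjusted p = 8.47e-06 for pBIC10 against pBIC; log2 1.67 ± 0.20 SE, adjusted p = 2.93e-05 for pBIC against YC). Traf3, a ubiquitin ligase that also restrains non-canonical NF-κB, had 283, 300.5 and 271 CPM in pBIC10 and 108, 58.0 and 129 CPM in pBIC, against 90.2, 93.9, 95.4 and 88.2 CPM in YC. It was higher in pBIC10 than in both other groups (adjusted p = 3.42e-04 against pBIC and 5.05e-05 against YC). The kinase gene Ikbke was 2.61-fold lower in pBIC10 than in pBIC and 4.17-fold lower than in YC (adjusted p = 0.00384 and 9.65e-05). In pBIC against YC its log2 difference was -0.67 (adjusted p = 0.0554), and it was called lower in 10 of the 20 alternatives, among them DESeq2 (0.0321), limma-voom (0.0398) and the fits without pBIC replicate 2 (0.0477) or YC replicate 3 (0.0345); Traf3 was called higher there without pBIC replicate 2 (0.0224). Irf3, the transcription factor at the end of this arm, was lower in both lymphoma groups than in YC (48.4 ± 0.950 CPM in pBIC10, 63.0 ± 23.3 CPM in pBIC and 148 ± 21.9 CPM in YC, with adjusted p = 7.50e-05 and 4.80e-04).

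Of 9 tested negative regulators, 2 were higher and 3 lower in pBIC10 than in pBIC, and none was higher against YC, where 5 were lower in pBIC10 and 4 in pBIC. Dok3, an adaptor that dampens receptor signalling, had 81.8, 117 and 85.3 CPM in pBIC10 and 31.6, 12.6 and 24.0 CPM in pBIC, against 407, 572, 514 and 451 CPM in YC. The groups did not overlap in any of the 3 comparisons (adjusted p = 1.86e-04 for pBIC10 against pBIC). Socs1, a feedback inhibitor of cytokine and receptor signalling, had 4.90, 4.80 and 6.36 CPM in pBIC10 and 19.8, 33.2 and 29.6 CPM in pBIC, against 21.3, 26.5, 27.8 and 28.3 CPM in YC. It was lower in pBIC10 than in both other groups (adjusted p = 2.00e-05 against pBIC and 9.00e-06 against YC). Nlrx1 was lower in both lymphoma groups than in YC (3.14 ± 1.09 CPM in pBIC10, 4.38 ± 1.45 CPM in pBIC and 43.5 ± 6.77 CPM in YC, with adjusted p = 1.42e-06 and 3.32e-06). Irak3, which blocks IRAK release, was higher in pBIC10 than in pBIC (adjusted p = 0.0126), a call lost without pBIC10 replicate 1 (0.0550) or pBIC replicate 3 (0.0604).

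Of the 6 transcription factors of the endosomal receptors, 1 was higher and 1 lower in pBIC10 than in pBIC, and 3 were lower in pBIC10 and 3 in pBIC than in YC. Irf8 was lower in pBIC10 than in pBIC and in YC (266 ± 64.0 CPM in pBIC10, 692 ± 314 CPM in pBIC and 701 ± 70.9 CPM in YC, with adjusted p = 0.00428 and 0.00146). Rel, the NF-κB subunit c-Rel, was lower in both lymphoma groups than in YC (112 ± 20.4 CPM in pBIC10, 82.5 ± 32.9 CPM in pBIC and 397 ± 163 CPM in YC, with adjusted p = 0.00111 and 3.06e-04). Irf7, which MyD88 activates in type I interferon induction, had 42.2, 25.9 and 3.74 CPM in pBIC10 and 9.38, 5.54 and 4.23 CPM in pBIC, against 53.1, 68.6, 63.0 and 77.0 CPM in YC. Both lymphoma groups lay below YC, and pBIC10 replicate 3 stood below the pBIC libraries. Irf7 was higher in pBIC10 than in pBIC (log2 1.90 ± 0.62 SE, adjusted p = 0.0367), a call lost without pBIC10 replicate 1 (0.209) or 2 (0.129), pBIC replicate 2 (0.159) or 3 (0.159) or YC replicate 2 (0.0647) or 3 (0.0695), and lower in pBIC than in YC (log2 -3.36 ± 0.63 SE, adjusted p = 9.87e-04). In pBIC10 against YC its log2 difference was -1.45 ± 0.57 SE (adjusted p = 0.0512), and it was called lower in 10 of the 20 alternatives, among them DESeq2 (0.00988), limma-voom (0.00815) and the fits without pBIC10 replicate 1 (0.0271) or 3 (0.0275). Irf5, which MyD88 also activates, was not called in any comparison on all 10 libraries (191 ± 27.4 CPM in pBIC10, 205 ± 26.3 CPM in pBIC and 239 ± 14.1 CPM in YC).

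MyD88 cooperates with the B cell receptor in lymphoma, and 5 genes of B cell receptor signalling were read; 1 was higher in pBIC10 than in pBIC, 1 was higher and 1 lower in pBIC10 than in YC, and 2 were lower in pBIC than in YC. Cd79a, a signalling chain of the B cell receptor, had 600.0, 725 and 340.5 CPM in pBIC10 and 309.6, 144 and 134 CPM in pBIC, against 788, 791, 739.7 and 655 CPM in YC. It was the 1 gene of the 5 called between the lymphoma groups, higher in pBIC10 (log2 1.503 ± 0.33 SE, adjusted p = 0.00450). Cd79b, the other chain, was lower in both lymphoma groups than in YC (323 ± 66.0 CPM in pBIC10, 260.2 ± 78.1 CPM in pBIC and 934 ± 130.0 CPM in YC, with adjusted p = 1.21e-04 and 3.45e-05). Btk, a kinase below the receptor, had 204, 219.8 and 188 CPM in pBIC10 and 196, 176 and 109 CPM in pBIC, against 149, 141, 150.2 and 121 CPM in YC. It was the gene called higher in pBIC10 than in YC (log2 0.54 ± 0.19 SE, adjusted p = 0.0290), a call lost without pBIC10 replicate 1 (0.0648) or 2 (0.0896) or YC replicate 1 (0.0506), 2 (0.0646) or 4 (0.0914), and it was called higher in pBIC than in YC without pBIC replicate 3 (0.0462). Malt1, which links the receptor to NF-κB, had 302, 343 and 136 CPM in pBIC10 and 207, 177 and 164 CPM in pBIC, against 161, 204, 152 and 164 CPM in YC. The male pBIC10 replicate 3 stood below all other libraries. Malt1 was not called on all 10 libraries (adjusted p = 0.175 against pBIC and 0.0575 against YC), but without pBIC10 replicate 3 it was called higher in pBIC10 than in pBIC (0.00614) and in YC (0.00108). Bcl10, its partner, was not called in any comparison or alternative.

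Most of the genes listed here as immediate NF-κB output of Toll-like receptors were lower in pBIC10 than in either other group. The list was chosen with earlier results of these data known, so its counts depend on which genes were placed in it. In pBIC10 against pBIC, 8 of 11 tested genes were lower and 1 was higher, where 15.1% of all genes were lower; in pBIC10 against YC, 10 were lower and none was higher, where 26.9% of all genes were lower; in pBIC against YC, 6 were lower and none was higher, a count that was 3 without YC replicate 4. Their median log2 differences were -1.11, -1.75 and -0.64, beside medians near 0 over all genes. Of the 8 lower in pBIC10 than in pBIC, Nfkbiz (edgeR adjusted p = 0.0208) lost its call in 5 of the 20 alternatives and Tnfaip2 (0.0282) in 8. Both were lost without pBIC10 replicate 1 or 2. Nfkbia, not called there (0.0647), was called lower in 5 alternatives. Nfkbid, lower in pBIC10 than in YC (0.0296), lost its call in 8. The marker sums of T cells and of macrophages and monocytes, given above, were also lower in pBIC10 than in both other groups; their part in this list was not tested. Cd83, an activation marker of B cells, had 19.9, 16.3 and 27.0 CPM in pBIC10 and 282, 199 and 152 CPM in pBIC, against 259, 343, 354 and 320.1 CPM in YC. The pBIC10 libraries lay far below all others (log2 -3.32 ± 0.26 SE, adjusted p = 2.66e-06 against pBIC, and -3.92 ± 0.26 SE, adjusted p = 4.40e-07 against YC). The chemokine gene Ccl4 had 0.118, 0.0586 and 0.0513 CPM in pBIC10, which is 1 or 2 counts per library, and 2.57, 3.11 and 1.499 CPM in pBIC, against 7.04, 4.26, 5.02 and 9.34 CPM in YC. Both of its pBIC10 comparisons were called lower (adjusted p = 6.09e-05 and 3.57e-06). Bcl3, a nuclear inhibitor protein of the IκB family, was 1.87-fold lower in pBIC10 than in pBIC (38.1 ± 2.96 CPM and 71.3 ± 10.99 CPM, adjusted p = 0.00399). The gene that went up was Zc3h12a, an RNase that degrades inflammatory transcripts, with 77.3 ± 4.13 CPM in pBIC10 and 42.7 ± 10.6 CPM in pBIC (adjusted p = 0.00727).

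Of 6 receptors of the interleukin 1 family, most of which signal through MyD88, 4 were tested. In pBIC10 against pBIC, 1 was lower, and 2 without pBIC replicate 3 (Il18rap, adjusted p = 0.0136). In each lymphoma group against YC, 1 was higher and 3 were lower. Without 1 lymphoma library the filter kept 18516 to 18581 genes, so more of this list was tested. In those fits 5 were lower in pBIC10 without any 1 lymphoma library, and 5 in pBIC without any 1 pBIC10 library or pBIC replicate 3. These counts are thus not over the same 4 genes. The gene lower in pBIC10 than in pBIC was Il1r2, a decoy receptor that does not signal through MyD88, with 0.0590, 0.117 and 0 CPM in pBIC10 and 1.23, 2.49 and 0.643 CPM in pBIC, against 2.15, 4.26, 7.57 and 11.3 CPM in YC (adjusted p = 0.00308). Il1rap, the shared accessory chain, was higher in pBIC than in YC (13.01 ± 3.11 CPM and 6.38 ± 0.727 CPM, adjusted p = 0.00346). In pBIC10 (11.2 ± 1.74 CPM) its call against YC (adjusted p = 0.0143) was lost without replicate 3 (0.0587). Il18r1, a chain of the interleukin 18 receptor, had at most 0.176 CPM in any pBIC10 library and at most 0.214 CPM in any pBIC library, against 3.60 to 6.52 CPM in YC. It was called lower in both lymphoma groups (adjusted p = 1.02e-05 and 1.21e-05).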

How the data were processed

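RNA-seq was run on sorted splenic B cells (3 pBIC10, 3 pBIC and 4 YC libraries). The table the authors deposited holds whole read counts by gene symbol. The submitters' processing notes name FastQC, featureCounts and GRCm39; aligner, annotation, strand setting and versions: not given in the sources used here. Groups were taken from the labels. Counts were filtered (edgeR filterByExpr, 17718 of 46316 genes kept), scaled by TMM and tested with edgeR 4.0.16 (glmQLFit, robust; R 4.3.3) over all 10 libraries with 1 coefficient per group (7 residual degrees of freedom), with Benjamini-Hochberg adjustment over all genes tested and a threshold of 0.05. Each SE was taken as the absolute log2 fold change over the root of the F statistic. Total counts per library ran between 12.6 and 19.1 M. The procedure was run on simulated data with far fewer changed genes than were called here, so that run does not give the error rate of these calls. Alternatives were RLE and upper-quartile scaling, DESeq2 1.42.0, limma-voom 3.58.1, no filter, at least 1 CPM in 3 libraries, only the groups compared, sex as a covariate, females only, no immunoglobulin or T cell receptor genes, and leaving out each library. No pair of libraries held identical counts.

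The members and the lists were chosen with earlier results of these data known. One gene was taken out of a pathway list and is not reported here. All 10 members are named in each comparison; from each list, up to 4 called genes per direction with the smallest adjusted p (all genes of lists of 6 or fewer) may be named. Genes nearest to a member were sought among those with a mean of at least 5 CPM (log2 CPM with a prior count of 2) and are named for members called in at least 2 comparisons. Exon lengths, overlaps and shared 50-base stretches came from GENCODE vM21 (GRCm38), whose build differs from that of the counts; promoters came from RefSeq. The NF-κB and interferon-stimulated response element motifs are shortened forms, chosen after matches to longer forms had been seen.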

Additional observations from a re-analysis of the deposited data

Results flagged for a closer look

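A gap test within the 4 YC libraries marked 3 genes of the pathway lists in which 1 library stood apart from the others; such a test marks about 1 in 20 groups by chance. Irak3 had 32.6 CPM in YC replicate 2, against 10.3 to 14.01 CPM in the other YC libraries. Bcl3 had 101.6 CPM in YC replicate 2, against 66.8 to 68.8 CPM in the others. Tnfaip2 had 6.56 CPM in YC replicate 4, against 2.60 to 3.11 CPM in the others. No member was marked, and the lymphoma groups of 3 libraries were not tested.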

How the results depend on the processing

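Each member's log2 difference was recomputed in 20 alternative fits. Direction and side of the threshold were kept in 282 values from leaving out 1 library and in 292 from other settings; 9 and 1 changed direction, 6 and 2 lost a call and 3 and 4 gained one. Tlr3 was not tested in 1 of these fits. The calls of Tlr2, Tlr7, Cd180, of Myd88 for pBIC10 against YC and of Tlr3 for pBIC10 against YC held throughout. The lost calls were those of Tlr3 for pBIC10 against pBIC (also in limma-voom, adjusted p = 0.130, and in females only, 0.0661) and of Tlr4 for pBIC against YC. None of the 10 changes of direction concerned a called value. In limma-voom, Tlr1 for pBIC10 against pBIC had a log2 difference of 0.0230. Leaving out 1 library gave ranges of -0.29 to 0.32 for that comparison, -0.63 to 0.0362 for Tlr7 and -0.0197 to 0.18 for Irak1 (pBIC10 against YC), and -0.79 to 0.12 for Tlr3, -0.0183 to 0.48 for Tlr6, -0.37 to 0.69 for Tlr9 and -0.55 to 0.0515 for Cd180 (pBIC against YC). The cause was not tested. Myd88 for pBIC10 against pBIC was called with upper-quartile scaling (adjusted p = 0.0442) and at 1 CPM in 3 libraries (0.0489). Leaving out 1 library gave 2 to 4 members and 30 to 40 pathway genes called for pBIC10 against pBIC, 4 members and 41 to 54 pathway genes for pBIC10 against YC, and 3 members and 35 to 44 pathway genes for pBIC against YC. Without 1 lymphoma library more genes passed the filter, so these pathway counts are not all over the same genes.

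Without a filter, the median of all genes moved by -0.27 (pBIC10 against YC) and -0.35 (pBIC against YC); no other setting moved it by more than 0.1. Tlr3 rests on 7 to 9 counts per pBIC10 library, so its fold change is imprecise. No paired analysis was possible because the labels give no replicate numbers shared between groups.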
